A study of Mus musculus with 9 samples.

Results

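Chromatin accessibility was compared between mouse embryonic stem cells labelled NanogKO:Esrrb and cells labelled NanogKO, the comparison that asks what differed once Esrrb had been added to cells without Nanog. All libraries that the labels place in these groups were used, 3 a side and 6 of the 9 libraries analysed. Of 157497 counted regions, 45 on chromosome Y were left aside and 157394 of the rest had counts high enough to be tested. The remaining 3 libraries (NanogKO:Esrrb:Nanog) entered the statistical fit, where they add to the estimate of the spread. The design text of the series gives 12 samples, of which 9 were analysed here. Both groups carry the Nanog knockout in their labels. They were grown without further treatment in serum medium (10%) that held LIF (leukaemia inhibitory factor, 1000 U/ml), and were sorted as PECAM-positive, PDGFRA-negative cells. NanogKO cells have the line name N{delta} and the code 44C6, and NanogKO:Esrrb cells the line name N{delta}:cE:iN and the code 44J. How Esrrb was added is not stated, so the added Esrrb and the change of line cannot be told apart. The labels name no separate cultures, so the p-values reflect only how far these libraries vary, and that variation may be technical.

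ESRRB is an orphan nuclear receptor that binds DNA largely as a monomer, at an extended AAGGTCA site. In embryonic stem cells it is a transcription factor of the naive pluripotent state, its gene is a well-known target of NANOG, and it shares many binding sites with OCT4, SOX2 and KLF4. ATAC-seq uses a transposase that inserts sequencing adapters into open DNA, so reads collect at promoters, enhancers and other accessible sites. A higher count can come from more cells in which a site is open or from more opening per cell, and bulk libraries cannot tell these apart.

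The gene starts with the largest differences are shown first, because RefSeq gives a promoter sequence for them and the ESRRB site can be looked for there. Each line gives the 250 bases before an annotated start, read 5′ to 3′ on the gene's strand, from RefSeq's promoter table (GRCm38.p6, the assembly of mm10). Capitals mark a match to one of 11 short motifs searched on both strands, here those of TEAD (CATTCC, in 13.5% of all 21045 promoter windows of 300 bases), KLF (CCACACCC, 3.64%), TCF (CTTTGAT, 3.25%) and SOX factors (ACAATGG, 2.94%). The first 3 lines belong to regions that rose, the last 3 to regions that fell. A line can extend past its region, and the TCF match at Clcn5 lies outside the region that fell. None of the 6 sequences holds the ESRRB core AAGGTCA on either strand, and no match says only that these letters are not in this window.
Gm40847 (chr12:19066133-19066382, plus strand): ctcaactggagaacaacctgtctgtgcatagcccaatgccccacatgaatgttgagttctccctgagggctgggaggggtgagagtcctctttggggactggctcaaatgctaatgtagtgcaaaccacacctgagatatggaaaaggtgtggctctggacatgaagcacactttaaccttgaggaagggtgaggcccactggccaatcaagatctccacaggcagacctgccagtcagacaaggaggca
Map4 (chr9:110051771-110052020, plus strand): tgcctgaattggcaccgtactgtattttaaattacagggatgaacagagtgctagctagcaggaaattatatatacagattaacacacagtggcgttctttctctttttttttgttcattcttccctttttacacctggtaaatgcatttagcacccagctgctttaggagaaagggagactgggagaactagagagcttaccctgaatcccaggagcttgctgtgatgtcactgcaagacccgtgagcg
LOC666331 (chr11:101610450-101610699, plus strand): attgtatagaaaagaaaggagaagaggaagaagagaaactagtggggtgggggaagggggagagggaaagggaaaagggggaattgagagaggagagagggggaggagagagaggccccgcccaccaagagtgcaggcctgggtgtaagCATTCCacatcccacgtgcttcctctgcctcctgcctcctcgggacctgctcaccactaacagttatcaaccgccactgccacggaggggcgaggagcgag
Upk3bl (chr5:136057017-136057266, plus strand): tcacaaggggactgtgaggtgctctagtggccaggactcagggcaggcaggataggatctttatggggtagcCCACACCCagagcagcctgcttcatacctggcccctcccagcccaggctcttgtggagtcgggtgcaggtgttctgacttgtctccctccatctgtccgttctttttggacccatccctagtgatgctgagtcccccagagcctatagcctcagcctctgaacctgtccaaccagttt
Clcn5 (chrX:7188715-7188964, minus strand): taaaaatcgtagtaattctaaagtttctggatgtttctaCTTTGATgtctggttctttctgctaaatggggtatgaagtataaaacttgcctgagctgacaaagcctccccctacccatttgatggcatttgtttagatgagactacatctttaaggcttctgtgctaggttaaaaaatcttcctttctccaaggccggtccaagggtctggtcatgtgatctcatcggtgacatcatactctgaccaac
Fam178b (chr1:36593333-36593582, minus strand): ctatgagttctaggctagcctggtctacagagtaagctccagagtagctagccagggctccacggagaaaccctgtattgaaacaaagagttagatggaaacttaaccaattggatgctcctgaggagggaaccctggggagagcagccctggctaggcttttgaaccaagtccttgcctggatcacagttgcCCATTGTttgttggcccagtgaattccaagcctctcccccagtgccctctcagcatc

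At the start of Map4, which encodes a microtubule-associated protein, the region chr9:110051971-110052665 had 2.2, 2.56 and 2.45 CPM (read counts scaled to library size) in NanogKO libraries and 9.51, 11.9 and 8.37 CPM in NanogKO:Esrrb. It rose 4.12-fold (log2 fold change 2.04 ± 0.15, SE, adjusted p = 9.5e-11, edgeR's quasi-likelihood test). All NanogKO:Esrrb libraries lay far above all NanogKO libraries, a separation that every region named by rule had to show and that is not repeated below. The region at the start of Gm40847, a predicted gene, rose from 1.12, 0.607 and 0.710 CPM to 3.8, 3.72 and 3.59 CPM (2.21 ± 0.21). It lies within a block of chromosome 12 that is described further on. At LOC666331 the values went from 1.93, 2.61 and 2.27 CPM to 7.86, 10.3 and 7.59 CPM (1.91 ± 0.19). Next in size were the starts of Ckmt1, a mitochondrial creatine kinase (1.88 ± 0.22), and Tbc1d24, a protein of vesicle trafficking (1.80 ± 0.15).

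The largest falls at gene starts were larger than the largest rises. The start of Upk3bl, a uroplakin-like gene, was open in NanogKO and nearly closed in NanogKO:Esrrb. Its region chr5:136057074-136057404 had 9.59, 8.36 and 9.92 CPM in NanogKO and 0.676, 0.587 and 0.766 CPM in NanogKO:Esrrb, a 13.7-fold fall (-3.78 ± 0.20, adjusted p = 6.2e-13). Clcn5, a chloride and proton exchanger of endosomes, had 8.18, 10.0 and 8.99 CPM at its start against 1.79, 1.19 and 2.21 CPM (-2.39 ± 0.23). At Fam178b the fall was 4.67-fold, from 15.4, 16.1 and 16.1 CPM to 3.46, 2.85 and 3.90 CPM (-2.22 ± 0.14). Eps8l1, related to the actin regulator EPS8, and Il17re, a receptor of the interleukin-17 family, followed with -2.20 ± 0.17 and -2.0 ± 0.17.

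**Figure D1:**
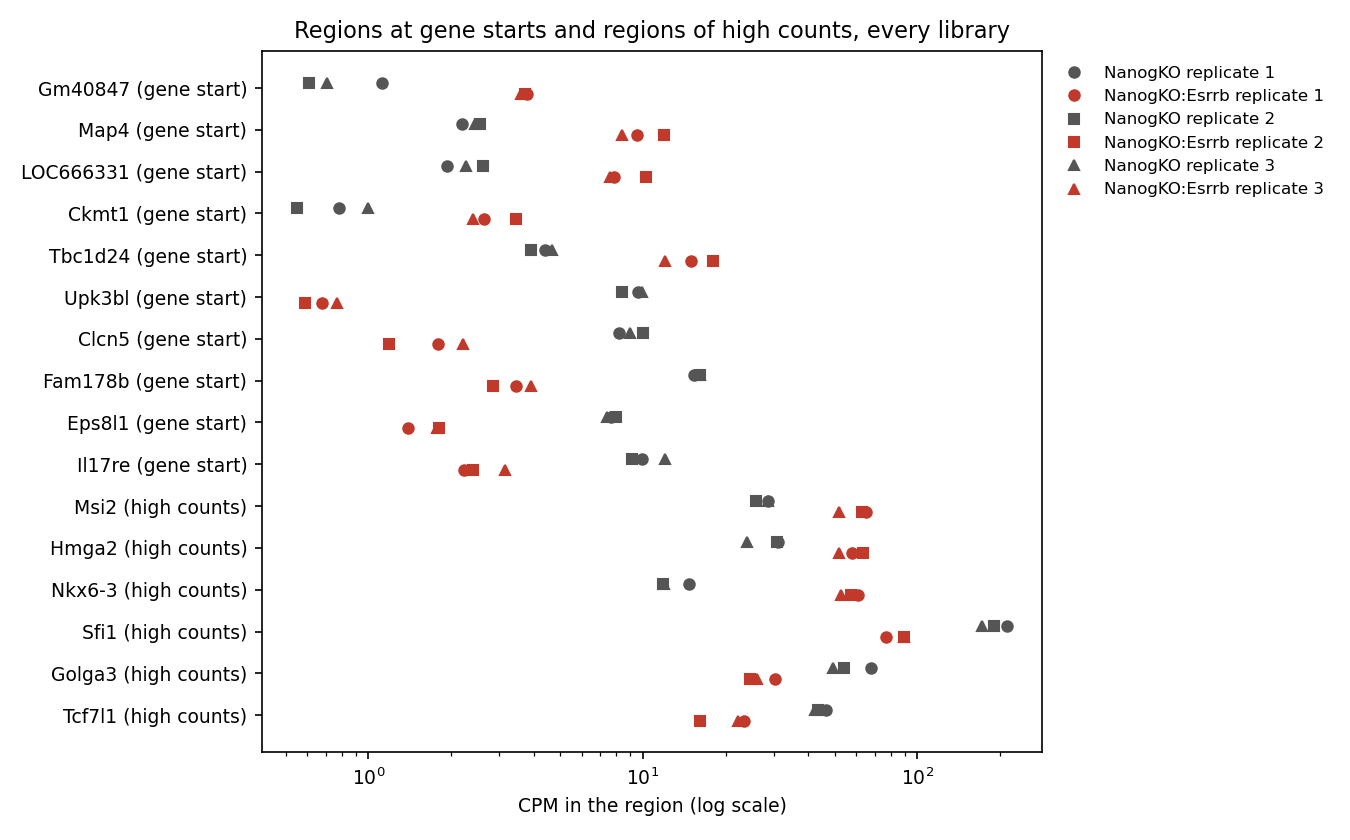
Each row is a region named by rule, at a gene start or among the regions of high counts, and each point is a library, with CPM on a log axis, NanogKO in grey and NanogKO:Esrrb in red. The 3 libraries of a group lie close together and the groups do not overlap in any row, which the rule required. The widest gap is at Upk3bl.

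Among regions with many reads, differences past 2-fold were found in both directions. The region of highest mean CPM that rose by that much lies in Msi2, a Musashi RNA-binding protein. It had 28.5, 25.7 and 28.7 CPM in NanogKO and 64.8, 63.0 and 52.0 CPM in NanogKO:Esrrb (chr11:88689827-88690818, 1.12 ± 0.12). A region 45587 bp from Hmga2, a chromatin architectural protein, rose by 1.01 ± 0.13. One 3633 bp from Nkx6-3, a homeobox factor, rose 4.44-fold, from 14.7, 11.8 and 11.9 CPM to 60.8, 57.1 and 52.6 CPM (chr8:23162581-23163579, 2.15 ± 0.13). In the opposite direction, a region within Tcf7l1, the TCF factor that represses pluripotency genes when WNT signalling is off, fell from 46.3, 43.3 and 42.4 CPM to 23.3, 16.2 and 22.2 CPM (chr6:72677241-72678498, -1.10 ± 0.13). A region 800 bp from Golga3, a Golgi protein, fell by 1.08 ± 0.12 on the log2 scale. In Sfi1, a centrosomal protein, a region had 211, 191 and 173 CPM in NanogKO and 76.5, 89.5 and 89.2 CPM in NanogKO:Esrrb (-1.17 ± 0.13), and whether its reads are shared with repeated copies was not examined.

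Accessibility differed at 58204 of the tested regions, 37% of all, at an adjusted p under 0.05. NanogKO:Esrrb was higher at 31488 regions (20%) and lower at 26716 (17%). The median fold was 1.88 among regions that rose and 1.75 among those that fell. Past 2-fold, 13171 regions were higher (8.37%) and 9444 lower (6%). The libraries of the groups did not overlap at 81654 regions (51.9%), and at 56465 (35.9%) they did not overlap and the region was called. Total counts ran from 41293113 to 58061748 in the 6 libraries. As a description, Pearson's r of log2 CPM over the tested regions was 0.974 to 0.983 between libraries of a group and 0.882 to 0.913 between groups.

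The rises lay away from gene starts. Of 11852 regions that overlap a promoter window (250 bases before to 50 after a start), 585 rose (4.94%) and 1583 fell (13.4%). Outside genes, between 10 and 50 kb from the nearest protein-coding gene, 24.6% of 24472 regions rose and 16.9% fell. Within genes, away from their ends, 21.4% of 66773 regions rose and 17.2% fell. The balance at gene starts depends on the scaling: with factors taken only from regions within 1 kb of a gene end, 996 starts were higher and 1172 lower, and the split over all regions moved to 33554 higher and 20240 lower. Without NanogKO:Esrrb replicate 1, 384 starts were higher, and without NanogKO:Esrrb replicate 2, 925 were lower.

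Large changes were commoner where counts were low, and more so for falls. In the quintile of regions with the lowest mean abundance, 3533 rose and 3791 fell past 2-fold. In the quintile with the highest, 1193 rose and 223 fell, so rises made up most of the large differences at abundant sites. By the authors' peak lists, 14686 of 29616 regions listed only for NanogKO:Esrrb rose and 10969 of 19990 listed only for NanogKO fell. These shares are a description, since the peaks were called on the same reads. Regions in both lists had 14530 rises and 15407 falls among 98677, with a median log2 fold change of -0.06.

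**Figure D2:**
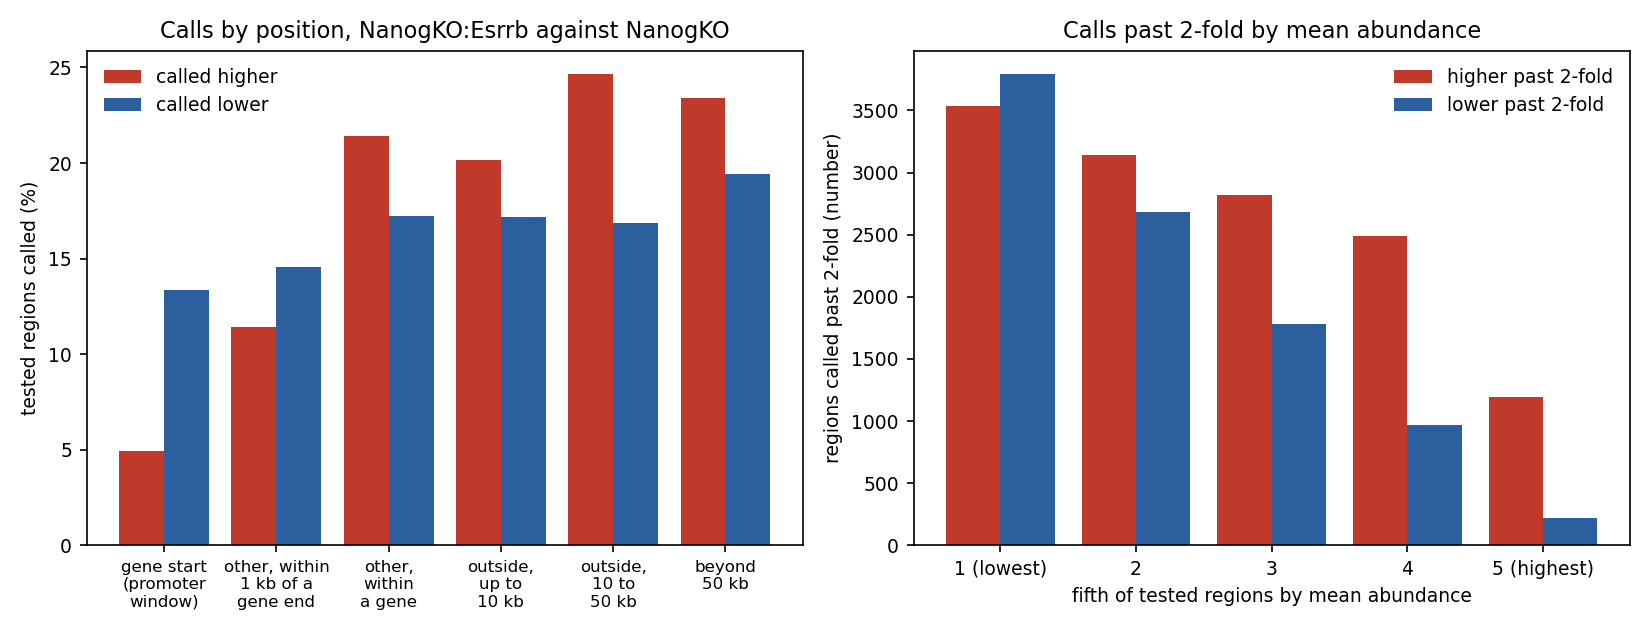
The left panel gives the percentage of tested regions called higher (red) or lower (blue) in NanogKO:Esrrb by position, and the right panel the number called past 2-fold by quintile of mean abundance (the fifth is the highest). Gene starts show 4.94% higher and 13.4% lower, and in the most abundant quintile 1193 rises stand beside 223 falls.

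Promoter letters were described by direction of call. Of 13808 promoter windows of 300 bases that overlap a tested region, 663 belong to regions that rose, 1737 to regions that fell and 11408 to regions not called. The ESRRB core AAGGTCA was found in 6.18% of windows that rose, in 2.71% that fell, in 2.73% not called and in 4.06% of all 21045 windows in the table. Among regions past 2-fold the shares were closer, 8.33% of 72 windows that rose and 6.25% of 128 that fell. Windows with the core rose in 10.25% of 400 cases, against 4.64% of the windows without it. The longer form TCAAGGTCA, which contains the core, was found in 28 windows (0.20%), of which 1 rose and 2 fell, and in 0.34% of all windows. Other motifs were also commoner in windows that rose than in those not called: AP-1 (TGANTCA) was in 9.50% against 4.29%, and AGATAA, the motif of GATA factors, in 11.2% against 5.23%. The ETS motif (CCGGAAGT) went the other way, with 4.98% of windows that rose, 3.28% that fell and 8.43% not called. Over all windows, these 3 motifs were in 7.04%, 9.68% and 5.20%. The octamer (ATGCAAAT) and STAT (TTCCNGGAA) motifs, in 1.68% and 1.18% of all windows, were in 1.51% and 1.21% of those that rose. Base composition moved with these shares, with a median GC content of 56.7% where regions rose, 59.7% where they fell and 62.0% where they were not called, and its part in them was not tested.

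The core was found in 41 windows of regions that rose, of which 18 were kept as candidates. A candidate had the core inside the region and at least 20 bases from both ends of the sequence before the gene start. Its region had median abundance or more and no overlap between the groups' libraries, and at most 1 was kept a gene. Among these 18 candidates, the 3 with the largest rises are shown, chosen after their values were seen. Each line gives the core in capitals with 20 bases on either side, on the gene's strand, where TGACCTT is the core on the opposite strand.
Ckmt1 (chr2:121357577-121357623, plus strand): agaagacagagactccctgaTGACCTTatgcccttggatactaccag
Fam53b (chr7:132776989-132777035, minus strand): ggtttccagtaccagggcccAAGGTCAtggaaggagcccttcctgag
Klrb1a (chr6:128622949-128622995, minus strand): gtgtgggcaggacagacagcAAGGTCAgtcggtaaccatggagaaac

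The region at Ckmt1 had 0.781, 0.551 and 0.994 CPM in NanogKO and 2.64, 3.45 and 2.40 CPM in NanogKO:Esrrb. At Fam53b the values were 3.34, 3.24 and 4.14 CPM against 7.66, 10.6 and 9.31 CPM (1.36 ± 0.16). Klrb1a, a lectin-like receptor of natural killer cells, had 1.27, 1.99 and 1.30 CPM at its start against 3.02, 4.27 and 2.94 CPM (1.16 ± 0.21). The NanogKO means were 0.775 CPM at Ckmt1, 3.57 at Fam53b and 1.52 at Klrb1a. The groups did not overlap at any of these 3 regions, which their choice required.

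At the loci named in the labels, 19 of 31 regions in or within 10 kb of Esrrb rose and 2 fell, and 3 of 5 at Nanog rose. The region of smallest p within Esrrb had 3.76, 4.25 and 5.29 CPM in NanogKO and 20.3, 22.2 and 18.5 CPM in NanogKO:Esrrb (chr12:86503894-86504645, 2.19 ± 0.14). Within Nanog, the region chr6:122713174-122713525 had 0.903, 0.937 and 1.56 CPM against 3.02, 3.84 and 4.02 CPM (1.67 ± 0.22). The start of Esrrb itself did not pass the test, with 18.2, 19 and 17.3 CPM in NanogKO and 18.8, 16.7 and 19.6 CPM in NanogKO:Esrrb (0.01 ± 0.11, adjusted p = 0.94), and the groups overlapped. The deleted part of Nanog is not given, and reads from added Esrrb sequence were not told apart from those of the gene.

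Promoters that define the cell type were checked. Sox2, a core pluripotency factor, had 38.8, 33.6 and 33.8 CPM at its start in NanogKO and 55.0, 42.8 and 50.7 CPM in NanogKO:Esrrb (0.49 ± 0.12, adjusted p = 0.0015). Zfp42, the naive marker REX1, went from 15.2, 14.1 and 15.1 CPM to 24.5, 18.6 and 19.4 CPM (0.49 ± 0.13), and Pou5f1, which encodes OCT4, from 4.42, 4.50 and 4.77 CPM to 6.38, 6.59 and 6.37 CPM (0.50 ± 0.16). These 3 starts were open in both groups, and their libraries did not overlap. Pax6, a neural factor, had the reverse order at its start, with 14.2, 13.7 and 13.4 CPM in NanogKO and 7.58, 5.80 and 8.23 CPM in NanogKO:Esrrb (-0.94 ± 0.14). No tested region was found at a promoter window of Gata4, Gata6 and Sox17 (primitive endoderm), Col1a1 (fibroblasts) or Cdh5 (endothelium). The same held for the sort markers Pecam1 and Pdgfra and for Sall4, a pluripotency factor. Some genes have no promoter window, and none was used on chromosome 18. Which of these genes have a window was not checked, so this does not show that their starts were closed. Regions at 3 other starts of lineage genes had counts in both groups and did not pass the test. Cdx2, a trophoblast and mesendoderm factor, had 49.7, 44.8 and 40.5 CPM in NanogKO and 43.8, 39.4 and 39.2 CPM in NanogKO:Esrrb (-0.14 ± 0.11, adjusted p = 0.34). The means at 1 of 2 regions at the start of Col1a2, a collagen gene of fibroblasts, were 4.02 and 3.24 CPM (adjusted p = 0.16), and those at T, the mesendoderm factor brachyury, 2.91 and 2.20 CPM (adjusted p = 0.16). Of these 3, the groups were free of overlap only at Col1a2.

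Some stretches of chromosome moved as a whole. On chromosome 4, from 98.5 to 102.5 Mb, 243 of 341 regions rose and 9 fell, with a median log2 fold change of 0.79 against 0.03 on the rest of the chromosome. Its 8 bins of 500 kb had medians from 0.56 to 1.26, while the bins just before and just after had -0.58 and -0.56. Gene starts in the stretch moved too, with 16 of 19 higher and none lower (median 0.62). The stretch held 1446, 1545 and 1528 RPM (reads scaled to the library total) in NanogKO and 2453, 2532 and 2504 in NanogKO:Esrrb, a ratio of 1.66. In NanogKO:Esrrb:Nanog, which shares its line name with NanogKO:Esrrb, it held 2302, 2411 and 2517.

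A similar stretch lay on chromosome 12 from 15 to 21 Mb, where 228 of 386 regions rose and 11 fell (median 0.68, against -0.09 on the rest of the chromosome). The medians of its 12 bins ran from 0.30 to 1.32, and the neighbouring bins had 0.18 (6 regions) and 0.09 (66 regions). Further out the edge was less clear. Bins 5.25 and 5.75 Mb to the right of the centre of the stretch had medians of 0.59 (8 regions) and 0.72 (11 regions). Of 22 gene starts there, 12 rose and none fell (median 0.37). Its share was 1935, 1915 and 1894 RPM in NanogKO and 2651, 2725 and 2722 in NanogKO:Esrrb, a ratio of 1.41. The bounds of both stretches were chosen after their values were seen. DNA copies were not measured, and more copies of a stretch in one line and more open chromatin on it cannot be told apart. Foxd3 and Ak4 lie in the first stretch, Gm40847 and 2410004P03Rik in the second.

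**Figure D3:**
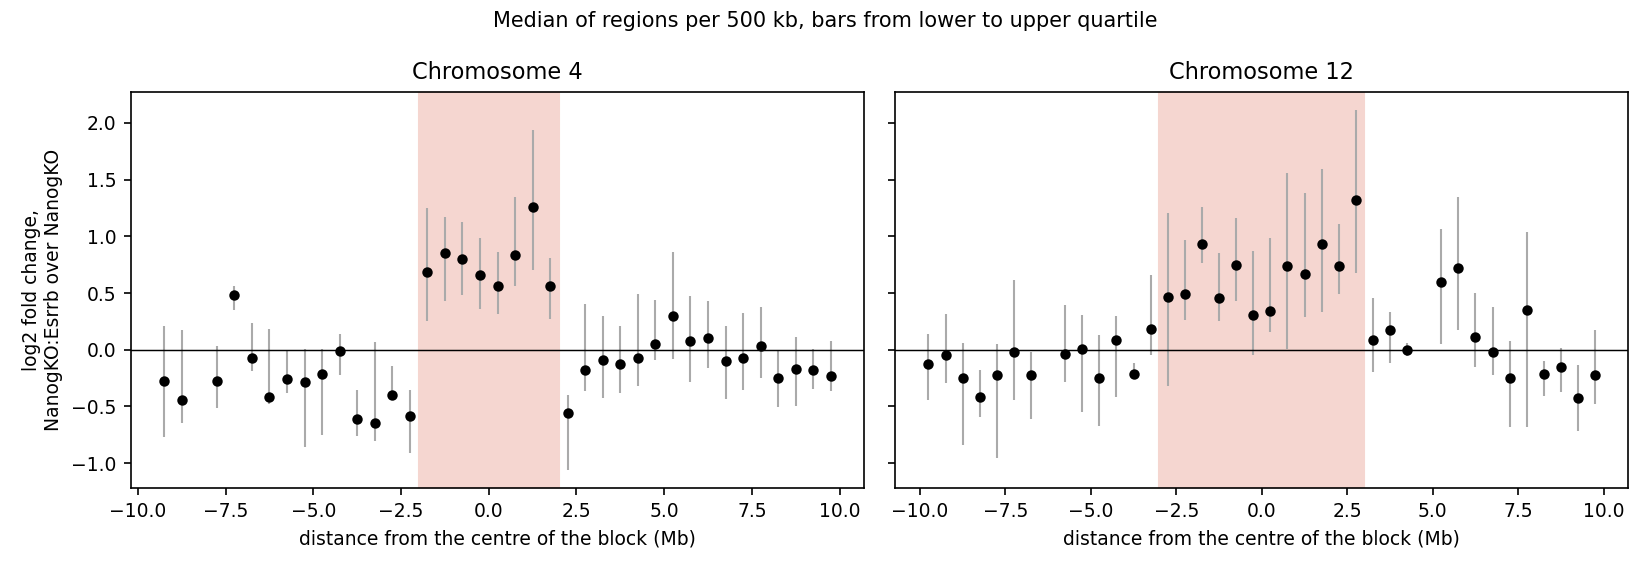
Each point is the median log2 fold change (NanogKO:Esrrb over NanogKO) of the tested regions in a bin of 500 kb, with bars from the lower to the upper quartile, against distance in Mb from the centre of the shaded stretch on chromosome 4 (left) and chromosome 12 (right). Bin medians inside the shading are all above 0. They lie between 0.56 and 1.26 on chromosome 4 and between 0.30 and 1.32 on chromosome 12. Bins next to the shading have lower medians. On chromosome 12, bins at 5.25 and 5.75 Mb, outside the shading, rise again to 0.59 and 0.72.

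Over 527 windows of 5 Mb, 12 had a median above 0.25 and 15 one below -0.25. The highest were chr12 from 15 to 20 Mb (0.64), chr4 from 100 to 105 Mb (0.58) and chrX from 115 to 120 Mb (0.51, 41 regions). The lowest were chr7 from 55 to 60 Mb (-0.38), chr6 from 75 to 80 Mb (-0.37) and chr11 from 35 to 40 Mb (-0.36). Whole chromosomes differed little: the median was highest on chromosome 4 (0.05) and lowest on X (-0.12), and X held 1.67, 1.76 and 1.73% of reads in NanogKO against 1.60, 1.56 and 1.66% in NanogKO:Esrrb. The groups' shares of reads did not overlap on X or on chromosomes 2, 4, 5, 6, 9 and 19, where the exact two-sided permutation test over samples gave p = 0.1, the smallest it can give.

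Neighbouring regions that all rose formed longer runs than regions that all fell. There were 71 runs of at least 10 consecutive regions that rose, with gaps of at most 50 kb, and 8 that fell. The longest held 39 regions over 204005 bp around Jak1, Ak4 and Dnajc6, and the next 28 regions beside Pde4b and several Pramel genes, both in the chromosome 4 stretch. Then came runs of 23 regions nearest to Tgfbr2, the type II receptor of TGF-beta, and 22 nearest to Pcsk6, a proprotein convertase that activates NODAL. A run of 21 was nearest to Tbx3, which encodes a T-box transcription factor. Runs had no limit on the distance to the gene, and only 14 tested regions lie within 50 kb of Tgfbr2. The Tbx3 run had 27.5, 28.2 and 29.5 CPM summed in NanogKO and 81.5, 98.1 and 65.7 CPM in NanogKO:Esrrb. NanogKO:Esrrb replicate 3 was the lowest of its group at the Tbx3 run and still far above NanogKO, in a run built only of regions called higher.

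Of the runs that fell, the longest had 14 regions at Rtl1, an imprinted gene derived from a retrotransposon. Its regions summed to 50.5, 49.3 and 44.7 CPM in NanogKO and 23.1, 20.3 and 22.8 CPM in NanogKO:Esrrb. Runs of 11 lay at Greb1l, at Maml2, a coactivator of NOTCH, at Gzmk and Esm1, and over Zim1, Peg3 and Usp29, which are imprinted neighbours. The last had 196, 173 and 170 CPM summed in NanogKO against 130, 107 and 121 CPM. In each of these sums the groups did not overlap, which follows largely from building the runs only of regions called lower.

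For single genes, the share of nearby regions that moved one way was examined in 5968 genes with at least 8 tested regions. Among them 381 had a share higher minus a share lower of 50 percentage points or more, and 204 the reverse. All 23 regions of Ak4, a mitochondrial adenylate kinase, rose (median 1.44), as did all 11 of Upp1, a uridine phosphorylase (0.95), and all 9 of 2410004P03Rik (0.96). F2rl1, the protease-activated receptor PAR2, had 12 of 13 regions higher, and so did Gpa33, a cell surface antigen of the intestine. The region of smallest p at Gpa33 went from 3.29, 4.28 and 4.67 CPM to 15.4, 13.6 and 13.7 CPM (chr1:166135162-166135877, 1.80 ± 0.14).

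At the other end, 20 of 22 regions within 50 kb of Rtl1 fell (median -1.58). The region of smallest p lies outside the gene, 34952 bp away. It had 16.4, 15.4 and 13.2 CPM against 1.45, 0.871 and 0.853 CPM, a 14.2-fold fall (chr12:109529082-109529948, -3.83 ± 0.21). Atp10a, a phospholipid flippase, and Esm1, a secreted proteoglycan, had 7 of 8 regions lower each. Greb1l had 16 of 19 lower and Pappa, a protease that cleaves IGF-binding proteins, 9 of 11. In Pappa the region of smallest p fell from 22.2, 26.5 and 23.7 CPM to 11.1, 10.1 and 12.8 CPM (chr4:65238396-65238992, -1.09 ± 0.13).

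Gene groups were described by the regions within 50 kb of their genes, to be read against 20% higher, 17% lower and a median of -0.01 over all tested regions. Of 26 groups, 16 had more regions higher than lower. No test of a group was made, and regions of a gene are not independent. Genes given below with counts alone were chosen after their values were seen.

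Naive pluripotency genes had the largest excess of rises, with 230 of 509 regions higher and 42 lower (median 0.35). Esrrb itself is in this group and had the most rises, 22 of 40 regions with 2 lower. Zfp42 had 21 of 29 regions higher and none lower, Tbx3 18 of 30, Tfcp2l1, a factor downstream of LIF, 13 of 19 with 1 lower, and Mybl2, a cell cycle factor, 10 of 15. Pecam1, the gene of the sort marker, had the most falls of the group, 8 of 30 with 6 rises. A region 16012 bp from it went from 9.35, 9.95 and 10.6 CPM to 3.58, 2.23 and 2.26 CPM (-1.89 ± 0.18). Sox2 had 5 regions higher and 5 lower of 26, although its start rose.

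Nuclear receptors, the family of ESRRB, and their cofactors had 108 of 592 regions higher and 119 lower (median -0.03). Esrrb itself is in this group and had the most rises, 22 of 40 regions with 2 lower, so the other members together leaned further towards falls. Scaling on gene ends turned the counts of the group to 116 higher and 87 lower. Without NanogKO:Esrrb replicate 3 they had 98 higher and 97 lower. Falls gathered at Thrb, a thyroid hormone receptor (12 of 24), at Ncoa1, a coactivator (12 of 28), and at Nr6a1, the germ cell nuclear factor that represses Pou5f1 in differentiation (9 of 18). A region in Thrb fell 6.16-fold, from 9.66, 10.2 and 9.39 CPM to 1.95, 1.21 and 1.62 CPM (chr14:17737284-17737516, -2.62 ± 0.18). The corepressor Ncor1 had 9 of 23 regions higher and none lower. Regions at Nr5a2, a receptor with a related binding site, were mixed, with 7 of 26 higher and 2 lower.

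In LIF and STAT3 signalling, which sustains self-renewal in this medium, rises lay at several receptors. Of 268 regions 107 rose and 24 fell (median 0.29). Lifr, which binds LIF, had 19 of 31 regions higher, Il6st, its partner gp130, 13 of 20, and Il6ra, the interleukin-6 receptor, 10 of 13, with none lower in any of the 3. A region in Lifr had 23.4, 22.5 and 19.8 CPM in NanogKO and 39.5, 44.3 and 36.3 CPM in NanogKO:Esrrb (chr15:7115039-7116575, 0.87 ± 0.12). The kinase Jak2 went the other way, with 6 of 13 regions lower and none higher. Its region of smallest p went from 13.6, 13.9 and 13.9 CPM to 9.37, 8.93 and 10.8 CPM (-0.51 ± 0.12). Without NanogKO replicate 2 the falls of the group numbered 14 and its rises 92, and with scaling on gene ends 15 and 114.

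FGF and ERK signalling, which drives exit from naive pluripotency, had 136 of 462 regions higher and 66 lower (median 0.14). Rises lay at the ligand Fgf4 (7 of 8 regions) and at the kinase Map2k1 (10 of 16). Inhibitors of the pathway were mixed. Rises outnumbered falls at the phosphatase Dusp6 (9 of 13), Spred2 (20 of 41, with 3 lower) and Spry4 (9 of 21). They also did at Spry2 (6 of 17, with 2 lower) and Spry1 (3 of 11, with 2 lower). Falls outnumbered rises at Dusp5 (5 of 10, with 1 higher), Dusp4 (4 of 12, with 2 higher) and Spred1 (2 of 9, with 1 higher). The receptor Fgfr2 fell, with 10 of 16 regions lower and none higher. One region in it had 8.18, 11 and 6.27 CPM in NanogKO and 0.974, 0.704 and 0.870 CPM in NanogKO:Esrrb (chr7:130176910-130177405, -3.32 ± 0.22, adjusted p = 1.4e-11). All NanogKO:Esrrb libraries were below 1 CPM there.

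NODAL and TGF-beta genes had 98 of 282 regions higher and 38 lower (median 0.13). Of the activating side, Pcsk6 had 26 of 30 regions higher, the NODAL co-receptor Tdgf1 6 of 6 and Tgfbr2 10 of 14 with 1 lower. A region 16180 bp from Pcsk6 rose 8.72-fold, from 2.05, 1.53 and 2.03 CPM to 18.4, 17.1 and 13.2 CPM (chr7:65845047-65845956, 3.12 ± 0.16, adjusted p = 4.1e-13). Smad7, an inhibitor of the pathway, had 16 of 26 higher and 2 lower.

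BMP genes had 65 of 276 regions higher and 49 lower, with a median of -0.03 that scaling on gene ends moved to 0.04. The ligands were split. Bmp4 and Bmp7 held 14 rises each, of 18 and 24 regions, with none lower. Bmp2 had 3 of 4 regions lower and 1 higher, while Bmp5 had 4 of 6 and Bmp8b 2 of 5 lower, with none higher. Next to Bmp4, a region 1002 bp away rose from 2.10, 2.22 and 1.85 CPM to 9.82, 11.9 and 8.43 CPM (chr14:46391671-46392109, 2.29 ± 0.15). The receptor Bmpr1a had 5 of 13 regions lower and none higher. At Smad6, an inhibitor, 10 of 36 regions fell and 5 rose, and one fell 6.32-fold, from 11.1, 9.61 and 10.7 CPM to 1.49, 1.52 and 1.93 CPM (-2.66 ± 0.18).

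WNT and NOTCH genes had more falls than rises, 102 and 75 of 551 regions for WNT and 52 and 41 of 231 for NOTCH, and with scaling on gene ends both turned, to 70 lower and 87 higher and to 40 lower and 42 higher. In the WNT group, Lef1, a nuclear partner of beta-catenin, had 11 of 31 regions lower and 1 higher, and the ligand Wnt5a 6 of 12 lower. A region 44743 bp from Lef1 had 8.88, 9.26 and 8.48 CPM in NanogKO and 4.69, 3.77 and 4.35 CPM in NanogKO:Esrrb (-1.06 ± 0.15). The receptors Fzd5 and Lgr4 had 4 of 9 and 5 of 15 regions higher. In the NOTCH group, Maml2 had 19 of 30 regions lower and Notch2, a receptor, 5 of 9 (median -1.42), while Rbpj, the DNA-binding factor of the pathway, had 11 of 36 higher and 3 lower.

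Among Hippo genes 29 of 264 regions rose and 49 fell (median -0.07). Amotl1, which holds YAP at junctions, had 9 of 21 regions lower and 2 higher. The DNA-binding factor Tead1 had 11 of 54 lower, a share near that of all regions, and 2 higher. Tead4, the TEAD factor of early trophoblast, had 6 of 19 higher and 1 lower. Retinoic acid genes had 18 of 164 regions higher and 42 lower (median -0.11), with falls at the receptor Rxra (7 of 22) and the carrier Crabp2 (4 of 7) and rises at Crabp1 (4 of 6).

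Eph receptors and ephrins, which guide cell contacts, had 83 of 262 regions higher and 43 lower (median 0.04), and the rises came largely from a pair of receptors. Epha4 had 40 of 45 regions higher (median 1.38) and Epha2 15 of 20, with none lower. In Epha4, a region rose 5.45-fold, from 1.39, 2.15 and 1.91 CPM to 9.88, 11.1 and 8.98 CPM (chr1:77451667-77451958, 2.45 ± 0.19). The ephrin Efna5 had 6 of 16 regions lower. Its region of smallest p had 7.05, 5.96 and 5.62 CPM against 4.57, 4.16 and 4.82 CPM (-0.46 ± 0.15, adjusted p = 0.020), and this call was lost with scaling on gene ends (adjusted p = 0.054), without NanogKO replicate 1 (0.12) and without NanogKO:Esrrb replicate 1 (0.053) or 2 (0.083). The falls of the group numbered 25 with scaling on gene ends and also without NanogKO replicate 1, and 28 without NanogKO replicate 2.

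PI3K, AKT and mTOR genes had 84 of 409 regions higher and 65 lower. Foxo3, a transcription factor that AKT keeps out of the nucleus, had 15 of 31 regions higher and none lower, and its relative Foxo1 10 of 26 lower and 2 higher. A region in Foxo3 rose 6.02-fold, from 0.927, 1.12 and 1.16 CPM to 5.89, 8.24 and 5.29 CPM (2.59 ± 0.19). Igf1r, the receptor upstream, had 13 of 34 regions lower and 2 higher. Apoptosis genes had 53 of 207 higher and 32 lower. The survival factor Mcl1 had 9 of 10 regions higher and Bcl2, its relative, 4 of 10 lower. Pmaip1, which encodes the pro-apoptotic NOXA, had 12 of 21 higher, and Bcl2l11, which encodes BIM, 5 of 14 lower.

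Adhesion and junction genes had 97 of 431 regions higher and 81 lower (median -0.03, or 0.04 with scaling on gene ends). Itga6, a laminin receptor subunit, had 13 of 28 regions higher and Jam2, a junctional adhesion molecule, 11 of 14. One region 41363 bp from Itga6 had 9.91, 9.87 and 9.23 CPM in NanogKO and 33.3, 30.5 and 24.7 CPM in NanogKO:Esrrb (1.61 ± 0.12). Ctnna2, the neural alpha-catenin, had 10 of 20 regions lower and lies in the low window of chromosome 6.

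Of the chromatin groups, Polycomb and Trithorax genes had 116 of 461 regions higher and 33 lower (median 0.14). Eed, a core subunit of Polycomb repressive complex 2, had 15 of 22 regions higher and Wdr5, a shared subunit of Trithorax complexes, 9 of 12, with none lower. Jarid2, which recruits Polycomb repressive complex 2, had 13 of 68 higher and none lower, a share of rises near that of all regions. A region 4880 bp from Eed had 2.69, 3.09 and 2.74 CPM against 9.39, 14.3 and 6.82 CPM (1.84 ± 0.19). NanogKO:Esrrb replicate 2 was highest there, and the lowest of its group was still above NanogKO. Phc2, of Polycomb repressive complex 1, had 6 of 15 regions lower.

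DNA methylation genes had 67 of 216 regions higher and 29 lower (median 0.13). The hydroxylases Tet1 and Tet2 had 17 of 26 and 12 of 26 regions higher, with 1 and 3 lower, while Tet3 had 1 of 13 higher and 4 lower. At Tet1, a region 5204 bp away went from 8.57, 7.28 and 7.93 CPM to 20.7, 21.8 and 15.4 CPM (1.28 ± 0.13). The de novo methyltransferase Dnmt3a had 6 of 32 lower and 4 higher. SWI/SNF and NuRD genes were near the background, with 89 of 514 regions higher and 75 lower. Within them the deacetylase Hdac2 had 10 of 17 higher and none lower, and the remodellers Chd7 and Smarca2 had 12 of 36 and 6 of 17 lower.

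Formative and primed genes, which mark cells leaving the naive state, were split, with 75 of 330 regions higher and 75 lower. Otx2 had 8 of 13 regions higher and Foxd3 15 of 20, and Foxd3 lies in the chromosome 4 stretch, without which the group had 60 higher and 75 lower. With scaling on gene ends the group had 82 higher and 59 lower. Falls lay at Grhl2, an epithelial factor (18 of 35), Pou3f1, which encodes OCT6 (6 of 11), and Sox3 (5 of 6). A region 34245 bp from Grhl2 went from 10.4, 11.5 and 10.6 CPM to 2.64, 3.59 and 3.69 CPM (chr15:37198020-37198576, -1.71 ± 0.16).

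Neural genes had the lowest median of the 26 groups, -0.23, with 29 of 311 regions higher and 79 lower. Meis2, Pax6, Six3, Irx3 and Sox11, all factors of neural patterning, had 13 of 28, 8 of 16, 7 of 13, 6 of 10 and 6 of 13 regions lower. Ncam1, a neural adhesion molecule, had 7 of 24 higher and 2 lower, and a region in it rose from 3.66, 3.11 and 3.61 CPM to 8.67, 10.5 and 9.0 CPM (1.44 ± 0.14). Without NanogKO replicate 2 the falls of the group numbered 46 and without NanogKO:Esrrb replicate 2, 49, against 24 and 23 rises. Mesendoderm genes had 19 of 199 regions higher and 25 lower (median -0.13), and Lefty1 and Foxa2 had 3 of 5 and 3 of 10 lower. In the same group Hand1 had 6 of 20 regions higher and 2 lower, Kdr 3 of 8 higher and none lower, and Pdgfra 4 higher and 4 lower of 18.

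Primitive endoderm genes, among them the sort marker Pdgfra, had 62 of 277 regions higher and 51 lower (median -0.01, or 0.06 with scaling on gene ends). Lama1, a basement membrane laminin, had 10 of 16 higher, while near Lamb1, another laminin chain, a region fell from 12.6, 13.4 and 13.2 CPM to 1.79, 1.89 and 3.20 CPM (chr12:31238939-31239560, -2.51 ± 0.19). Trophoblast genes had 60 of 295 higher and 53 lower, or 29 and 35 within 10 kb, with Bmp4 and Fgfr2 at the extremes. Germline genes had 30 of 174 regions higher and 39 lower, or 33 and 29 with scaling on gene ends. Prdm1, a transcriptional repressor needed to specify germ cells, had 13 of 26 regions lower and none higher, and a region in it fell 7.95-fold, from 12.4, 17.8 and 11 CPM to 1.39, 1.74 and 2.04 CPM (-2.99 ± 0.20). Prdm14, which acts with it in germ cells and in naive cells, had 9 of 22 higher and 5 lower.

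Markers of other cells and housekeeping genes had medians between -0.07 and 0.10. Fibroblast (feeder) markers had 17 of 124 regions higher and 18 lower, or 18 and 14 with scaling on gene ends. Endothelium and blood markers had 44 of 250 higher and 42 lower, and housekeeping genes 42 of 171 higher and 28 lower. Without NanogKO replicate 1, or with scaling on gene ends, the falls of the housekeeping group numbered 18. Single regions changed in these groups too: one in Vwf, a clotting factor of endothelium, rose from 1.12, 1.47 and 1.20 CPM to 6.58, 8.78 and 5.85 CPM (2.47 ± 0.18).

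**Figure D4:**
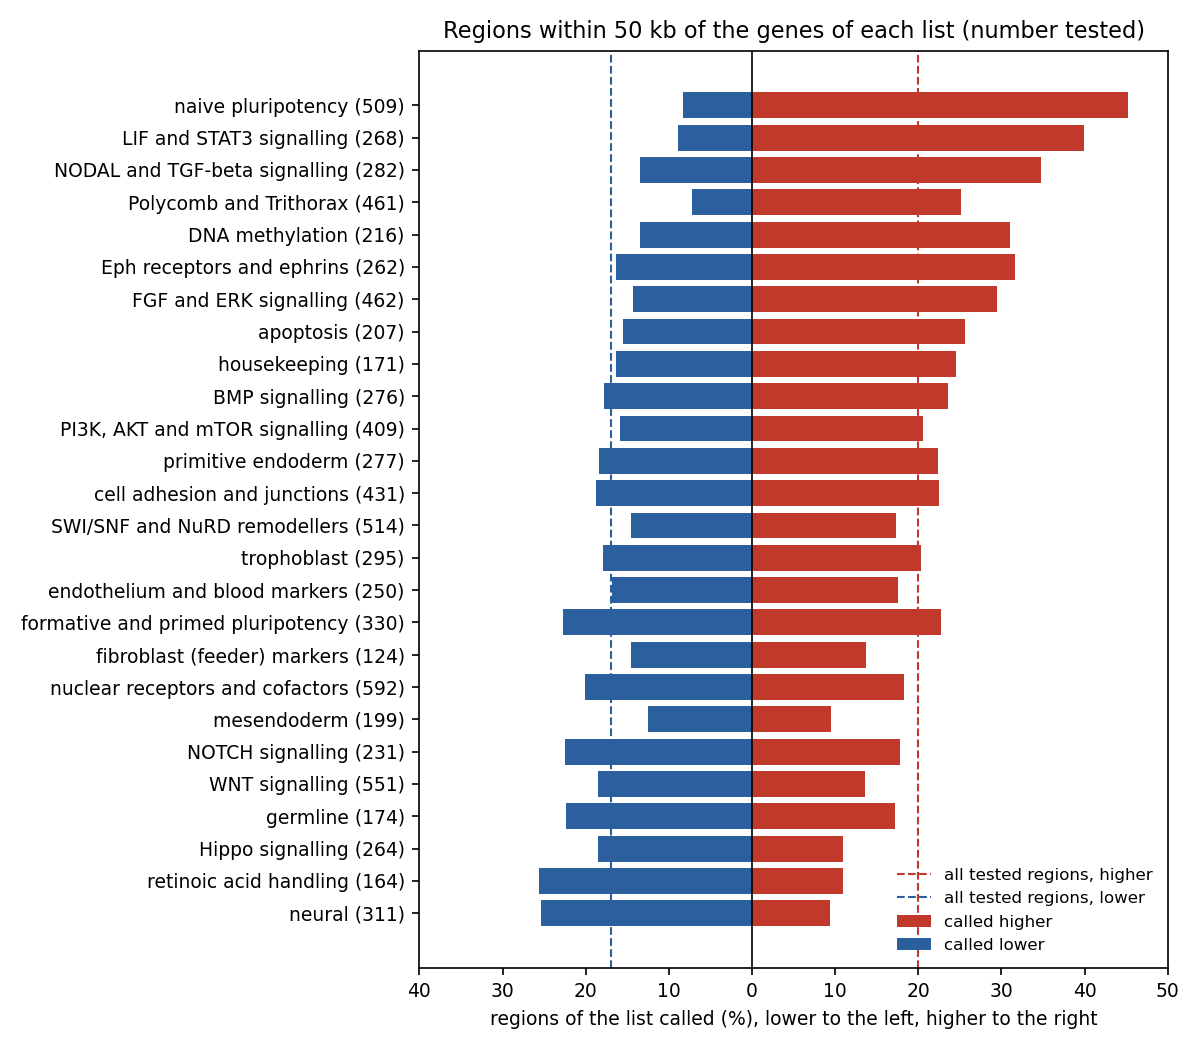
Bars give the percentage of regions within 50 kb of the genes of each group that were called higher (red, to the right) or lower (blue, to the left) in NanogKO:Esrrb, with the number tested in brackets and dashed lines at the percentages over all tested regions. Naive pluripotency stands highest with 230 of 509 regions higher, and neural genes lie at the other end with 79 of 311 lower.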

How the data were processed

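For each region the deposited table holds the raw read count in each of the 9 libraries, a whole number that was not normalized. The score in the authors' peak lists is the peak caller's own value and was not used beyond reading the lists. Per the submitters' processing notes, coordinates are mm10 and the tools were MACS2 2.2.0, Bowtie2, cutadapt, bedtools 2.26.0, SAMtools 1.4.1, bcl2fastq 2.19.1 and deepTools 4.4.0, in roles not given in the sources used here. The same holds for duplicate removal, the transposase shift and the counting tool.

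The test was edgeR's (version 4.0.16, R 4.3.3): 1 fit of 3 group means over 9 libraries, TMM factors, filterByExpr (58 regions left out), quasi-likelihood F test, Benjamini-Hochberg adjustment over all tested regions, called under 0.05. Values in CPM are scaled with TMM factors. Each region went to its nearest protein-coding gene (RefSeq GRCm38.p6), and "in" a gene does not tell exons from introns. Promoter windows cover 17492 of 21900 protein-coding genes, none used on chromosome 18.

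The groups, gene lists (726 entries, 669 genes, 667 matched, 53 in more than 1 list), tests and naming rule were chosen with earlier results of these data known. The rule names called regions of median abundance or more, without overlap between the groups' libraries, at most 1 a gene: at Esrrb and Nanog, the 5 largest rises and falls at gene starts, the 5 genes with the highest and the lowest net share, the 5 longest runs each way, the gene of each list with most rises and with most falls, the 3 regions of highest CPM each way past 2-fold, and the 3 highest and lowest windows. On simulated counts over 157284 regions, 40% of regions changed 1.5-fold and 95% of those changed 2-fold were recovered, with 4 false calls. The simulation changed far fewer regions than were called in the real data, all of median abundance or more. These shares therefore need not hold for the real test.

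Replicate numbers were checked for pairing. Deviations from group means correlated at 0.117, 0.152 and 0.143 for the same number and at -0.095 to -0.047 for different numbers, so the numbers were taken to pair the groups. This rests on the correlations alone, as no label gives a common culture or day. The main test did not use the pairing. No pair of libraries were copies (chi-square per region 3.55 to 6.38). Alternatives were other scalings, filters, tests (DESeq2 1.42.0, glmTreat), the replicate block, distances and windows, and leaving out each library.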

Additional observations from a re-analysis of the deposited data

How the results depend on the processing

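Main counts of 31488 higher and 26716 lower stayed within 1.5 times under the other scalings, filters, DESeq2 (30643 and 26701), the 6 libraries alone (35030 and 31204) and each library left out (25624 to 28615 and 20510 to 23115). Testing against a 1.5-fold change gave 11976 and 8623, and 72 and 127 at gene starts. Scaling on gene ends gave 996 gene starts higher. Leaving out 1 library gave 384 to 500 higher and 925 to 1446 lower there. The median of the highest window (chr12), 0.64, was 0.70 with scaling on gene ends, 0.62 with at least 1 CPM in 3 libraries, 0.54 over abundant regions, 0.32 over 10 Mb and 0.60 to 0.64 without 1 library; that of the lowest (chr7), -0.38, was -0.21 over abundant regions, where other windows were the extremes (chr4 from 100 to 105 Mb, 0.54, and chr19 from 25 to 30 Mb, -0.31). The causes were not tested. With the replicate block, 33848 regions were higher and 29712 lower, and the block changed no call of a named region and no other count by over 1.5 times. Of 1274 values of 75 named regions under alternatives, 1257 kept direction and call, 17 lost the call and 0 reversed; apart from Efna5 (adjusted p up to 0.12), the losses were against a 1.5-fold change. A choice made after seeing the data, lists without the chromosome 4 and 12 windows, moved only the formative list (60 and 75) and the LIF list (104 and 23). Small changes may be missed: 40% of simulated 1.5-fold changes were recovered. That simulation changed far fewer regions than were called here, so the share need not hold for the real test.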
